A study of Mus musculus with 6 samples.

Results

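The expressed genes of mouse chromosome 19 were compared between MTT and MPC cells, 2 mouse phaeochromocytoma (PHEO) lines. They were selected on position and signal: the gene lies on chromosome 19 in the RefSeq annotation of GRCm38.p6, its probe set carries exactly 1 gene symbol, the brightest probe set stands for the gene, and its mean log2 signal over the 6 arrays is above 7.74, the median of all values. The rule gave 381 genes, called members here, of 678 genes of the chromosome that were tested and of 11415 genes of the whole genome above the same limit. It did not use the difference between the lines, but the chromosome was chosen with its overall shift known, so the shift is described without a test, whereas each gene has its own test in a fit over all 19937 genes.

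RNA of 3 samples of MTT cells and 3 samples of MPC cells was hybridised to 6 one-colour Affymetrix Mouse Gene 1.0 ST arrays. Per the study's methods, MPC cells originate from Nf1 knock-out mice, and MTT cells were derived from liver metastases of MPC cells. The labels name no treatment of either line. The labels give liver metastasis as the source and name MTT cells in the growth text on all 6 samples, so the MPC group rests on the title and the cell type field. Whether the 3 samples of a line were grown separately is not stated. The p-values therefore measure only how much these samples vary, which may be technical.

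Mouse chromosome 19 is the shortest autosome and is rich in genes. For a chromaffin tumour it carries Gfra1, the co-receptor through which GDNF reaches the Ret kinase, Slc18a2, the vesicular transporter that loads monoamines into secretory granules, and Sdhaf2, which attaches the flavin cofactor to succinate dehydrogenase and is mutated in hereditary paraganglioma. Men1, mutated in multiple endocrine neoplasia, lies on it too. The chromosome also carries genes of general use, among them mitotic kinesins, desaturases and subunits of the respiratory chain.

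The array medians were 7.73 to 7.77. Of the chromaffin markers, 10 of 11 measured were above the limit, with Th at 13.5 as its mean over 6 arrays, and Pnmt below it at 7.02; 3 of the 11 were called higher and 1 lower in MTT cells. Above the limit were 1 of 8 hepatocyte markers, 2 of 8 of the adrenal cortex, 4 of 7 of fibroblasts, 0 of 5 of endothelium, 1 of 6 of macrophages and leukocytes and 1 of 3 of Schwann cells, and of all these only Postn, of fibroblasts, passed the test (1.09 higher on the log2 scale in MTT cells). The part of such cells in the results was not tested, and in bulk RNA fewer cells of a type cannot be told apart from less RNA per cell. An array signal holds a background that compresses differences at low signal, and levels of different probe sets cannot be compared.

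Promoters of 5 members are shown because these genes stand at the ends of the results below: As3mt and Gfra1 among the largest decreases, and Pdlim1, Ina and Gng3 among the 5 called increases. They were chosen after their values were seen. The sequences are from RefSeq (GRCm38.p6) and run from 250 bases before to 50 bases after the annotated start: As3mt at chr19:46707208-46707507 (+ strand), Gfra1 at chr19:58455349-58455648 (- strand), Pdlim1 at chr19:40271567-40271866 (- strand), Ina at chr19:47014431-47014730 (+ strand) and Gng3 at chr19:8839197-8839496 (- strand). Capitals mark matches, on either strand, of 5 searched motifs: the GC box GGGCGG, the cAMP response element TGACGTCA, the TATA box TATAAA, the E-box CACGTG and the CCAAT box CCAAT; none of the 5 contains another.
As3mt: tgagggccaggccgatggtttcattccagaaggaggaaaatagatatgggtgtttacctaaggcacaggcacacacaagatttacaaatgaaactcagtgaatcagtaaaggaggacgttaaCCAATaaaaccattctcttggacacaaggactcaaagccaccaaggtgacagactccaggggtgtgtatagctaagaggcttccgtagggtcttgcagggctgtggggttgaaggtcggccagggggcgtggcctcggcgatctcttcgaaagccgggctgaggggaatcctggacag
Gfra1: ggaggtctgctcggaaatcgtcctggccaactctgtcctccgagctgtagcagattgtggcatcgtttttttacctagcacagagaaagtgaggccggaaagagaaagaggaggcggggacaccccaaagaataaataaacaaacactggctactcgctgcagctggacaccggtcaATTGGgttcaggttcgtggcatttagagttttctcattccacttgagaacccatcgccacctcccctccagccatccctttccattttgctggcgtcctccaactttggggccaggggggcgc
Pdlim1: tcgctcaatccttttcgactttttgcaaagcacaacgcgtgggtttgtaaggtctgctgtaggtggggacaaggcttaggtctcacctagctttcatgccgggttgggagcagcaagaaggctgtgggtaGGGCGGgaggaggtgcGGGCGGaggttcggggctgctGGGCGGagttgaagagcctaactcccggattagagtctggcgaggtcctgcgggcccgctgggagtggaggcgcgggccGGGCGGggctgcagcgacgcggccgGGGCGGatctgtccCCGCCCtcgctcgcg
Ina: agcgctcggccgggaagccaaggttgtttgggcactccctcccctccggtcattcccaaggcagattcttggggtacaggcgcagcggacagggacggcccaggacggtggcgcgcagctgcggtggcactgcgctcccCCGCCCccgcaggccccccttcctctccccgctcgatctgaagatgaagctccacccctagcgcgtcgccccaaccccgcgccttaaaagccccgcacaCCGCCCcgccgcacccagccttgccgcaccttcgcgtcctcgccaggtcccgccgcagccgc
Gng3: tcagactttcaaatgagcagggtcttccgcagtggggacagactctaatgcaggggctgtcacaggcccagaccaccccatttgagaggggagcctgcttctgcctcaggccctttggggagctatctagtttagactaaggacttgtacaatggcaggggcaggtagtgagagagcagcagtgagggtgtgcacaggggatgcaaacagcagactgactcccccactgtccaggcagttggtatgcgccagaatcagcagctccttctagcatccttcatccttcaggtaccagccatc

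The As3mt window has a GC content of 52.0% with 9 CpG and 1 CCAAT match, and the Gfra1 window 54.0% with 12 CpG and 1 CCAAT match. Pdlim1 has 65.7% with 27 CpG and 6 GC boxes, and Ina 71.7% with 32 CpG and 2 GC boxes. The Gng3 window has 2 CpG and none of the 5 motifs. A promoter was found for 323 of the 381 members. Among these, 65.6% hold a GC box, against 35.9% of 27025 promoters of the same length, 1 per gene, and 7.12% hold a TATA box, against 14.2%. CCAAT matches were in 41.8% of member promoters and 38% of all, E-boxes in 8.05% and 7.24%, and cAMP response elements in 3.72% and 1.85%. The members were selected on signal, and the promoters of all genes include silent ones.

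Expression of chromosome 19 was lower in MTT than in MPC cells by a small amount that most members shared. The median log2 difference of the 381 members, MTT minus MPC, was -0.10 (quartiles -0.16 and -0.04), and 332 members, 87.1%, had a negative difference. For the 11034 expressed genes of other chromosomes the median was -0.00 and 52.4% were negative. These include chromosome 13, whose 408 expressed genes had a median of 0.18 with 242 called higher. After chromosome 19, the lowest chromosome median was -0.03, on chromosome 18. On the arrays themselves, the median over members of the log2 signal minus the gene's mean over the 6 arrays was -0.044, -0.049 and -0.069 on MTT 1, 2 and 3 and 0.069, 0.052 and 0.035 on MPC 1, 2 and 3, so the lines do not overlap. In the 9 pairs of an MTT with an MPC array the median difference lay between -0.079 and -0.143, with 78.2% to 87.1% of members lower on the MTT array.

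**Figure D1:**
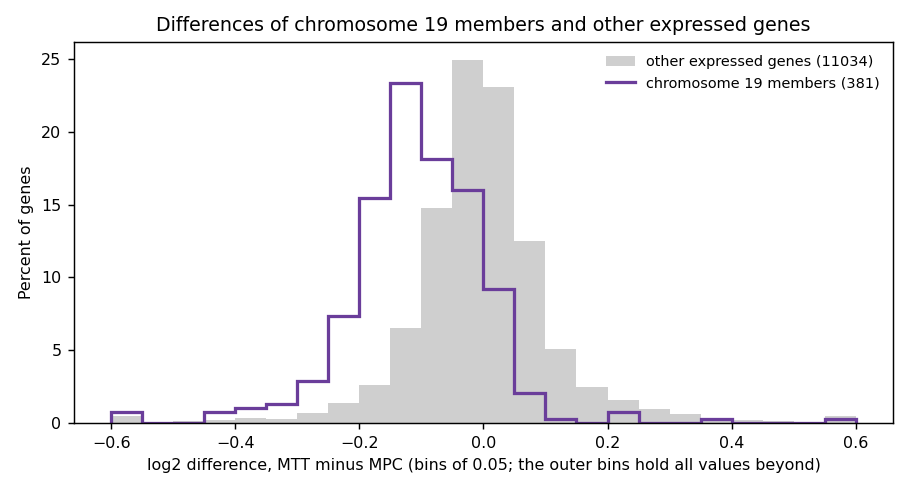
Log2 difference between MTT and MPC cells (x axis, means of 3 arrays each, bins of 0.05) against the percent of genes (y axis) for the 381 members of chromosome 19 (line) and the 11034 expressed genes of other chromosomes (filled). The members' distribution is moved to the left as a whole, with its median at -0.10 against -0.00.

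Of the 381 members, 104 (27.3%) were called lower in MTT cells and 5 (1.31%) higher (limma, Benjamini-Hochberg adjusted p under 0.05 over all 19937 genes). The same test called 5.23% of expressed genes of other chromosomes lower and 6.03% higher, or 5.36% and 3.98% with chromosome 13 left out. All 3 MTT arrays lay below all 3 MPC arrays for 233 members (61.2%), against 19.9% of other expressed genes, and above them for 12 members, against 17.2%. With 5 arrays the number of members called lower was 51, 46 and 46 without MTT 1, 2 and 3, and 57, 50 and 91 without MPC 1, 2 and 3. The share of other expressed genes called lower fell in the same fits, to 3.12%, 2.96%, 2.97%, 3.23%, 3.06% and 4.37%. Called lower in the full fit and in each of these 6 fits were 32 members, 8.40% of them, against 2.39% of other expressed genes, and called higher in all were 2 members. In what follows, such a gene is said to hold without any 1 array, that is, whichever array is left out.

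The shift ran along the whole chromosome. Members were put in gene order and divided into 10 segments of 38 or 39 members. The segment medians lay between -0.07 (Stip1 to Ahnak) and -0.15 (Stn1 to Csf2ra, the last segment), and in each of the 10 the median deviations of the 3 MTT arrays were all below those of the 3 MPC arrays. The count of members called lower went from 6 of 38, in the segments Dpp3 to Malat1 and Asrgl1 to Prune2, to 20 of 38 in the segment Ranbp6 to Lcor. Differences of neighbouring members were only loosely related, with r = 0.11 and rho = 0.13 over 380 neighbour pairs, which share the arrays; the median gap between neighbours was 0.084, against 0.090 between any pair of members.

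**Figure D2:**
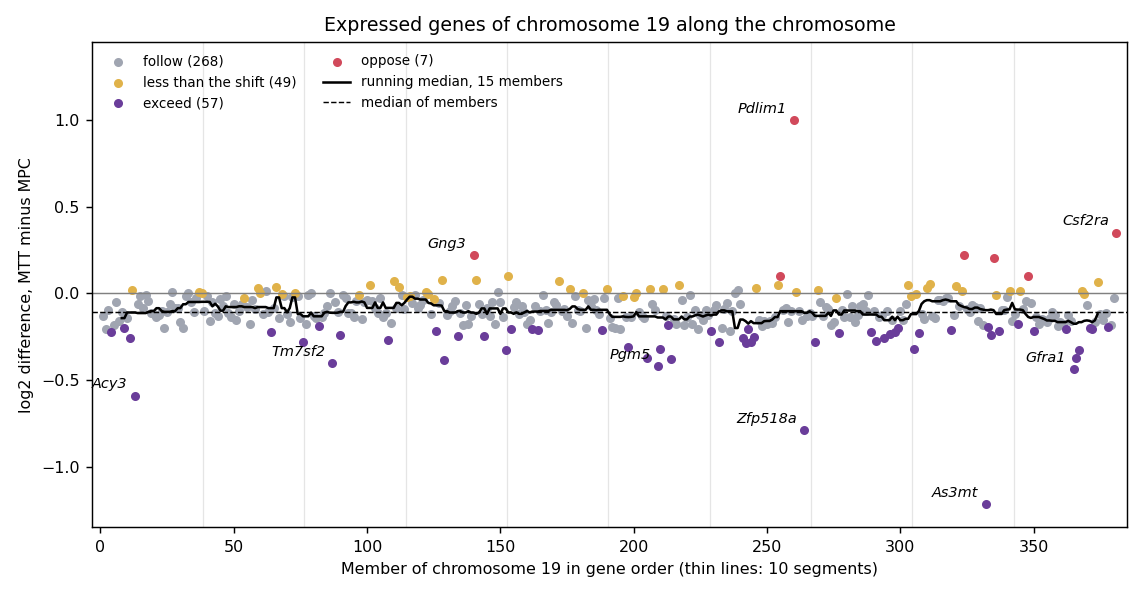
Log2 difference, MTT minus MPC (y axis), of each of the 381 members in gene order (x axis), coloured by its relation to the median of -0.10, with the running median over 15 members. The running median lies below 0 along the whole order, between -0.02 and -0.20, and single genes such as As3mt and Pdlim1 lie far from it.

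**Figure D3:**
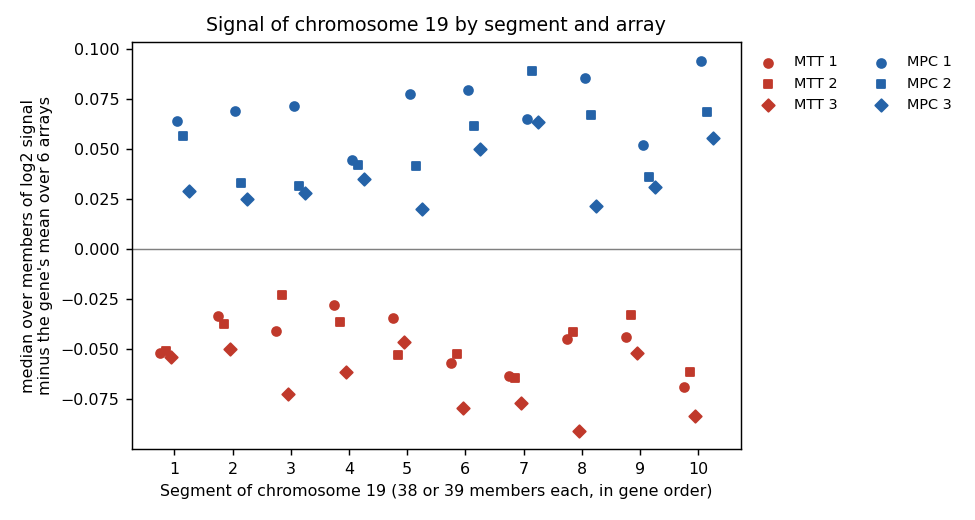
Median over the members of a segment of log2 signal minus the gene's mean over 6 arrays (y axis) for the 10 segments of chromosome 19 in gene order (x axis); each point is 1 array. In each segment the 3 MTT arrays lie below 0 and the 3 MPC arrays above 0.

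The stretches named next were picked after their values were seen and carry no test of their own. Over all 381 members, 27.3% were called lower and 87.1% had a negative difference. From Pank1 to Fra10ac1, 12 of 13 consecutive members were called lower, with a median difference of -0.17; 4 of them, Pank1, Kif20b, Pcgf5 and Tnks2, hold without any 1 array, and 4 to 9 of the 13 were called in the 6 fits that leave out an array. This stretch holds 3 genes of cell division, Kif11, the motor that pushes spindle poles apart, Kif20b and Cep55, which act at the end of cytokinesis, as well as Ide, the insulin-degrading protease, and Exoc6, of the exocyst. Only Fgfbp3, a carrier of fibroblast growth factors, was not called there: its signal was 7.93, 7.91 and 7.90 on the MTT arrays and 7.88, 7.80 and 7.97 on the MPC arrays, which overlap. At the other extreme, none of 17 consecutive members from Ppp1r14b to Rtn3 was called lower, in the full fit or without any 1 array (limma; 3 had an unadjusted p under 0.05). Their median was -0.03, 14 of 17 were negative, and Vegfb, Cox8a, the cochaperone Stip1, Mark2 and the corepressor Rcor2 are among them. The longest run of members below 0 had 33 genes, from Rrp12 to Lzts2. Of these, 8 (24.2%) were called lower, near the share of all members.

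The 381 members were sorted by the 95% interval of their difference. For 268 members it contained the median of -0.10, and these are said to follow the shift. Of these, 48 were called, and their differences ran from -0.22 to 0.02. To follow therefore does not mean that a decrease was shown for the single gene. For 57 it lay wholly below that value, so they exceed the shift. For 49 it lay above the median difference but not above 0, and for 7 it lay above 0, so that they oppose the shift. These classes use the same values that define the median and are a description. The median difference was -0.24 in members that exceed, 0.01 in those that moved less and 0.22 in those that oppose.

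Members that exceed tended to be long genes. Their median gene length in the annotation was 34715 bases, against 14274 for members that follow, 16043 for those that moved less and 11271 for the 7 that oppose. In 4 equal groups by gene length, 10.5%, 18.9%, 29.5% and 50% of members were called lower from the shortest to the longest, and the median difference went from -0.07 to -0.16. For expressed genes of other chromosomes, the shares called lower in 4 such groups by their own lengths were 4.64%, 4.35%, 4.43% and 7.51%. Spearman's rho between length and difference was -0.29 over the 381 members and -0.02 over 11030 other expressed genes. Members with higher signal had slightly lower differences too, with rho = -0.14, against -0.005 over other expressed genes. The 4 groups of members by signal, from low to high, had medians of -0.07, -0.10, -0.12 and -0.11. The number of probes per gene and its part in this were not tested. Of the promoters by class, 73.9% of 46 in members that exceed, 64.1% of 231 in those that follow, 61.5% of 39 in those that moved less and 85.7% of 7 in those that oppose hold a GC box. A CCAAT match was in 28.3%, 44.6%, 43.6% and 28.6% of them.

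As3mt, which methylates arsenic, fell most. Its log2 signal was 7.59, 7.56 and 7.72 on the MTT arrays and 8.83, 8.97 and 8.71 on the MPC arrays. Every MTT value was below every MPC value by more than the spread within a line, and the MTT mean lies under the limit of 7.74. The difference of these signals was -1.22 with a standard error of 0.071 (limma adjusted p = 3.81e-05). As3mt passed the signal limit through its MPC arrays alone, so its place among the members required a difference, and an MTT signal that low is not shown to lie above background. The adjacent members were Borcs7, of the complex that moves lysosomes, with a difference of -0.18 (limma adjusted p = 0.0408), and Cnnm2, a magnesium transporter, with -0.19 (limma adjusted p = 0.0123). The call of Borcs7 ended when any array but MPC 2 was left out (adjusted p up to 0.13) and that of Cnnm2 without MTT 2 or MPC 2 (up to 0.0552). Nt5c2, a purine nucleotidase and the next member, had 10.79, 10.79 and 10.77 in MTT and 11.03, 11.02 and 11.01 in MPC cells, a difference of -0.24 ± 0.031 (SE; limma adjusted p = 0.00281), and Ina, considered below, was higher in MTT cells.

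Zfp518a, a zinc finger protein, had signals of 8.57, 8.57 and 8.40 in MTT and 9.29, 9.37 and 9.25 in MPC cells, a difference of -0.79 ± 0.055 (SE; limma adjusted p = 1.07e-04). Acy3, an aminoacylase that acts on mercapturic acids, had 8.51, 8.45 and 8.42 in MTT and 9.12, 8.99 and 9.03 in MPC cells, a difference of -0.59 ± 0.044 (SE; limma adjusted p = 1.59e-04). The groups do not overlap for either gene. Pgm5, a phosphoglucomutase relative found at cell adhesion sites, fell by 0.42, Snord22, a small nucleolar RNA, fell by 0.39, and Ahnak, a very large scaffold protein, fell by 0.33. Snord22 lies within a host gene, and its probe set cannot separate it from unspliced host transcripts. Pgm5, like As3mt, has an MTT mean under the limit, at 7.63. These 5 genes hold without any 1 array.

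Among the members of neuroendocrine function in the lists below, Gfra1 changed most. Its signal was 11.31, 11.24 and 11.30 in MTT and 11.74, 11.75 and 11.67 in MPC cells. The gap between the groups is larger than the spread within either, and the signal is high in both lines. The difference was -0.44 ± 0.038 (SE), or 1.35-fold lower (limma adjusted p = 3.54e-04). The next members in gene order also exceeded the shift: Hspa12a, a distant member of the HSP70 family, had 9.26, 9.28 and 9.31 in MTT and 9.64, 9.66 and 9.68 in MPC cells, and Shtn1, shootin, which links actin flow to axon growth, had 9.45, 9.48 and 9.54 against 9.79, 9.85 and 9.82. These 3 adjacent genes, without overlap between the lines, fell by 0.44, 0.37 and 0.33 on the log2 scale and hold without any 1 array. A few members further on, Slc18a2 had 8.59, 8.57 and 8.52 in MTT and 8.53, 8.53 and 8.64 in MPC cells. Its groups overlap and the difference was -0.00 with a 95% interval of -0.10 to 0.09 (limma adjusted p = 0.98). The decrease of those 3 genes was not seen in Slc18a2. It is not adjacent to them, as Vax1 stands between, and the contrast was not tested.

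**Figure D4:**
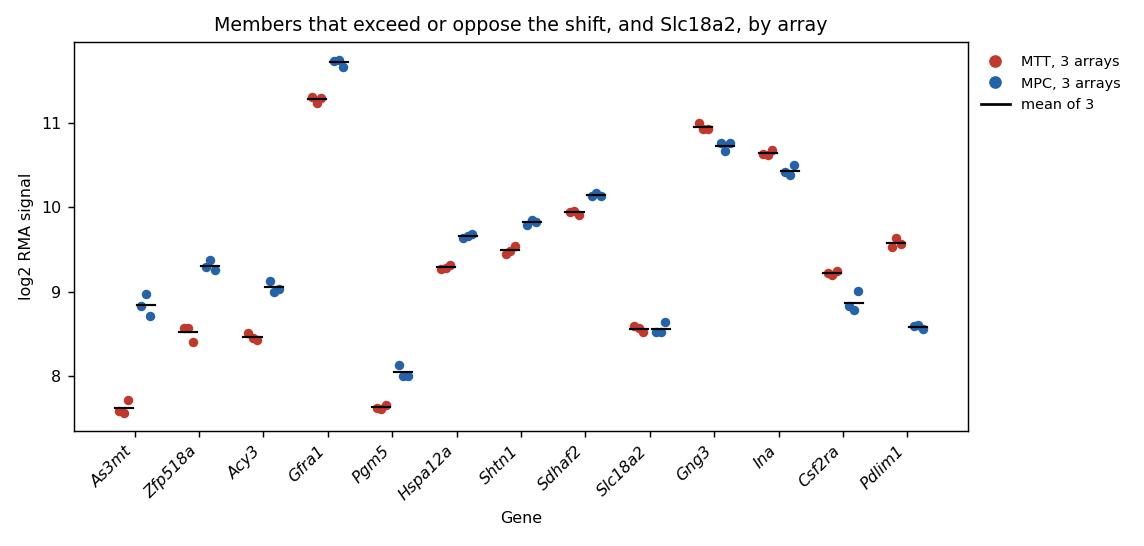
Log2 RMA signal (y axis) on each of the 3 MTT and 3 MPC arrays for 13 members (x axis), with horizontal bars at the mean of 3 arrays; levels can be compared within a gene only. The first 8 genes are lower and the last 4 higher on every MTT array than on any MPC array, whereas the values of Slc18a2 overlap.

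Of the members, 7 opposed the shift, of which 5 were called higher in MTT cells. Pdlim1, a PDZ and LIM domain protein of the actin cytoskeleton, had signals of 9.53, 9.64 and 9.57 in MTT and 8.59, 8.60 and 8.56 in MPC cells, a difference of 0.999 ± 0.038 (SE), or 2.0-fold (limma adjusted p = 7.01e-06). Its second probe set gave 1.04. Csf2ra, the alpha chain of the GM-CSF receptor and the last member of the order, had 9.22, 9.20 and 9.24 in MTT and 8.83, 8.78 and 9.0 in MPC cells, a difference of 0.35 ± 0.057 (SE; limma adjusted p = 0.00837). Both hold without any 1 array. Pdlim1 stands a few members after the stretch in which decreases were densest, and Csf2ra ends the segment with the lowest median.

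The other opposing members moved less. Gng3, a G protein gamma subunit of neurons, had 11.00, 10.93 and 10.93 in MTT and 10.76, 10.67 and 10.77 in MPC cells, a difference of 0.22 (limma adjusted p = 0.0155; without MTT 1 or MPC 2 the call ended, the highest adjusted p being 0.0636). Ina, alpha-internexin, an intermediate filament of neurons, had 10.63, 10.62 and 10.68 in MTT and 10.42, 10.39 and 10.50 in MPC cells, a difference of 0.21 (limma adjusted p = 0.0181), and its second probe set gave 0.24. Leaving out MTT 1, MTT 2, MTT 3, MPC 1 or MPC 2 ended its call, with adjusted p up to 0.0702. Mfsd13a, a transporter-like membrane protein, had a difference of 0.22 (limma adjusted p = 0.0262), and its call ended when any array but MPC 2 was left out, with adjusted p up to 0.0899. For these 3 genes the groups do not overlap, but each call ended in some of the fits that leave out an array. Slc35g1 and the cytoskeletal adducin Add3 had differences of 0.10 each and were not called (limma adjusted p = 0.142 and 0.168).

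By role, 14 lists of genes of chromosome 19 were described, chosen with earlier results of these data known. Their counts are read against the 27.3% of all members called lower and the 5.23% of other expressed genes, and their medians against -0.10. Of the 4 endocrine tumour suppressors and PHEO genes measured, with a median of -0.16, 2 were called lower. Sdhaf2 had 9.95, 9.96 and 9.91 in MTT and 10.14, 10.17 and 10.13 in MPC cells, without overlap, a difference of -0.21 ± 0.033 (SE; limma adjusted p = 0.00698) that holds without any 1 array. Hif1an, which hydroxylates HIF-1 alpha and so curbs its activity, had 9.77, 9.81 and 9.76 against 10.03, 10.04 and 9.94, a difference of -0.23 (limma adjusted p = 0.0117, and 0.0513 without MTT 1, which ends the call). Sufu, the inhibitor of Gli factors, had a difference of -0.11 (limma adjusted p = 0.187), and Men1 had 11.03, 10.99 and 10.96 against 11.08, 11.04 and 11.01, a difference of -0.05 with an interval of -0.13 to 0.03 (limma adjusted p = 0.475).

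The list for catecholamine storage, transmitter receptors and neurotrophic receptors had 8 members, with a median of -0.15, and 2 were called lower, Gfra1 and Plcb3. It also holds proteins that act below receptors and an ion channel, so its median is not that of storage and receptor genes alone. Plcb3, a phospholipase C that acts below Gq-coupled receptors, had 10.94, 10.95 and 10.90 in MTT and 11.28, 11.16 and 11.17 in MPC cells, a difference of -0.27 ± 0.043 (SE; limma adjusted p = 0.00746). It holds without any 1 array. Gnaq, the alpha subunit of Gq, had a difference of -0.12, the receptor kinase Grk5 -0.18, the cytochrome b561 relative Cyb561a3 -0.17, the muscarinic receptor Chrm1 -0.06 and the potassium channel Kcnk4 -0.03, none of them called in the full fit. Of 19 genes of exocytosis, synapse and neurites, 5 were called lower and 2 higher, with a median of -0.06. Apba1, a neuronal adaptor that binds the exocytosis protein Munc18, had 9.38, 9.31 and 9.29 in MTT and 9.79, 9.74 and 9.57 in MPC cells, a difference of -0.37 (limma adjusted p = 0.00749), and with Shtn1 it holds without any 1 array. This list thus holds members at both ends, with Gng3 and Ina higher, while Stx3, Ehd1, Rtn3 and Nrxn2 had differences between -0.03 and 0.05. In fits without 1 array, 2 to 5 of the 19 were called lower and 0 to 2 higher.

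**Figure D5:**
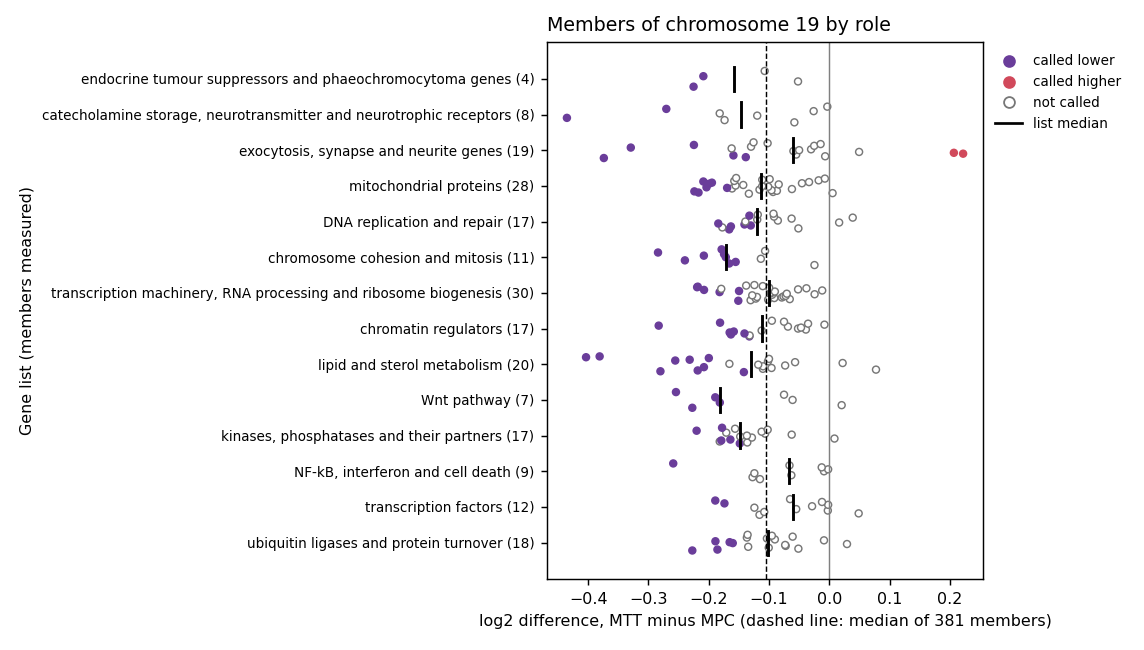
Log2 difference, MTT minus MPC (x axis), of the measured members of 14 gene lists of chromosome 19 (rows, number of members in parentheses); each point is 1 gene, filled where called, black ticks are list medians and the dashed line is the median of all members. List medians lie between -0.06 and -0.18, and called increases are found in the exocytosis, synapse and neurite list alone.

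Genes of cell division had 8 of 11 members called lower, with a median of -0.17. Incenp, the scaffold of the chromosomal passenger complex, had 11.00, 11.01 and 10.99 in MTT and 11.21, 11.23 and 11.18 in MPC cells, a difference of -0.21 (limma adjusted p = 0.00612), and Kif20b had 10.04, 10.07 and 9.94 against 10.30, 10.36 and 10.24, a difference of -0.28 (limma adjusted p = 0.00969). Both hold without any 1 array. The calls of Smc3, a cohesin subunit, and of Cep55, Kif11, Cacul1, Ccnj and Cdca5, with differences of -0.16 to -0.24, each ended in at least 1 of the fits without an array, in which 2 to 5 of the 11 were called. Of 17 genes of DNA replication and repair, 6 were called lower, among them Dclre1a, Mms19 and Hells, with differences of -0.13 to -0.18 and a list median of -0.12. None of these 6 calls holds without every array, and 0 to 3 of the 17 were called in those fits. The flap endonuclease Fen1 had a difference of -0.18 and was not called in the full fit.

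Of 28 genes listed for mitochondria, 7 were called lower and none higher (limma, list median -0.11). Besides mitochondrial proteins the list holds the transcription regulators Esrra and Pprc1 and the cytosolic enzymes Got1 and Psat1, none of them called. Cox15, which makes heme A for cytochrome oxidase, had 10.55, 10.52 and 10.56 in MTT and 10.77, 10.77 and 10.76 in MPC cells, a difference of -0.22 (limma adjusted p = 0.00435) that holds without any 1 array, as does that of Sdhaf2. The complex I subunits Ndufs8, Ndufb8 and Ndufv1 had differences of -0.14, -0.16 and -0.08 and were not called. Lipid and sterol genes had 9 of 20 called lower, with a median of -0.13. Tm7sf2, a sterol reductase of cholesterol synthesis, had 8.44, 8.50 and 8.49 in MTT and 8.98, 8.91 and 8.75 in MPC cells, a difference of -0.40 (limma adjusted p = 0.00505), and Vldlr, a receptor for lipoproteins and reelin, had 9.10, 9.23 and 9.22 against 9.48, 9.65 and 9.57, a difference of -0.38 (limma adjusted p = 0.00489). With Atl3, which shapes the endoplasmic reticulum (-0.22), and Pank1, of coenzyme A synthesis (-0.26), they hold without any 1 array. The paired desaturases Scd1 and Scd2, neighbours in the order, had differences of -0.23 and -0.10. The call of Scd1 (limma adjusted p = 0.0242) ended when any array but MPC 2 was left out, with adjusted p up to 0.0958, and Scd2 was not called. Bscl2, seipin, and the lysosomal lipase Lipa had differences of 0.08 and 0.02.

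In the Wnt pathway 4 of 7 members were called lower, with a median of -0.18. Tnks2, a tankyrase that marks axin for degradation, had 11.36, 11.41 and 11.36 in MTT and 11.60, 11.66 and 11.64 in MPC cells, a difference of -0.25 (limma adjusted p = 0.0037). Btrc, the F-box protein that recognises phosphorylated beta-catenin, had 10.75, 10.77 and 10.81 against 10.98, 11.00 and 11.02, a difference of -0.23 (limma adjusted p = 0.00573). Axin restrains the pathway and beta-catenin carries its signal. Both calls hold without any 1 array. The transcription factor Tcf7l2 (-0.19) and the co-receptor Lrp5 (-0.18) were called in the full fit: the call of Tcf7l2 ended without MTT 1, MTT 2 or MPC 1, and that of Lrp5 in 5 of the 6 fits.

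Chromatin regulators had 7 of 17 members called lower, with a median of -0.11. Pcgf5, a subunit of a Polycomb complex, had 10.36, 10.32 and 10.29 in MTT and 10.62, 10.68 and 10.53 in MPC cells, a difference of -0.28 (limma adjusted p = 0.00795) that holds without any 1 array, while Men1, Mta2, Ldb1 and Rcor2 lay between -0.04 and -0.05. Of 30 genes of transcription machinery, RNA processing and ribosome biogenesis, 6 were called lower (median -0.10), and Smndc1, of the spliceosome, holds without any 1 array, with a difference of -0.22 and a second probe set at -0.19. Kinases, phosphatases and their partners had 5 of 17 called lower (median -0.15), with Ppp6r3, a regulatory subunit of phosphatase 6, at -0.22 holding without any 1 array. Ubiquitin ligases and turnover genes had 5 of 18 called lower (median -0.10), of which Btrc holds.

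Transcription factors had 2 of 12 called lower and a median of -0.06, and genes of NF-kB, interferon and cell death had 1 of 9 called lower and a median of -0.07. In the latter, Unc93b1, which carries Toll-like receptors to endosomes, was called lower at -0.26 (limma adjusted p = 0.0192), and 4 of the 6 fits without an array did not call it. The NF-kB subunit Rela had a difference of -0.00, its partner Nfkb2 -0.12 and Cd274, the PD-L1 ligand, -0.13, and these were not called.

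By kind of gene, 371 of the members code for proteins and 7 are long noncoding RNAs. Malat1, a nuclear long noncoding RNA, had 11.32, 11.32 and 11.37 in MTT and 11.56, 11.49 and 11.80 in MPC cells. The groups do not overlap, but MPC 3 stands above the other arrays, and the difference of -0.28 was not called (limma adjusted p = 0.0637, and 0.0414 to 0.177 in fits without 1 array). Of 19 further probe sets of members above the limit, for 17 genes, 16 gave a negative difference, with a median of -0.04. A probe set took its place from the gene it is annotated to, and where its probes align was not checked.

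The signal limit decided which genes are members. The 297 genes of chromosome 19 at or below it had a median difference of -0.02, with 60.9% negative and 7 (2.36%) called lower. Over all 19937 genes tested, expressed or not, the median was -0.01, 54.7% were negative and 3.94% were called lower. Just above it lie Pyroxd2 and Actn3, both with a mean signal of 7.75 and differences of -0.12 and -0.03. Just below it lie Pik3ap1, at 7.74 with a difference of 0.01, and Prkg1, at 7.73 with 1.34.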

How the data were processed

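Gene expression of 3 MTT and 3 MPC samples was measured on Affymetrix Mouse Gene 1.0 ST arrays. The authors deposited log2 values made by RMA (background subtraction, quantile normalization between arrays and a summary of each probe set). Affymetrix Expression Console and RMA are credited to the submitters' processing notes, and Partek to the methods; versions and the genome build were not given in the sources used here. Samples were grouped by the cell type field.

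Of 34760 probe sets, the platform's annotation gives 21640 a single gene symbol, and 21553 of these were found in RefSeq's table for GRCm38.p6, the source of names, chromosomes, lengths and gene order. The brightest probe set was kept for the 954 genes with several, which left 19937 genes. The lines were compared by limma 3.58.1 (lmFit and eBayes, two-sided) in R 4.3.3, with Benjamini-Hochberg adjustment over all genes at 0.05. The script was tested on simulated data. Promoters and figures were handled in Python 3.11.15 with matplotlib 3.10.9 and pandas 2.3.3. On arrays the number of samples limits the precision.

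The chromosome, the members and the 14 lists were chosen with earlier results of these data known. The rule for named genes takes the 12 largest decreases and 12 largest increases among called members without overlap, of which only 5 increases exist. It adds up to 4 members of each list by p, all members of the tumour suppressor and the catecholamine lists, the first, last, lowest and highest member of each segment, and the 2 genes on either side of the signal limit. The text names a part of these, and other genes were named after their values were seen. Alternatives tried were per-gene variances without moderation, a trend of variance with signal, a replicate block, averaging the probe sets of a gene, fits and members with another signal filter, 2 other scalings and leaving out each array.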

Additional observations from a re-analysis of the deposited data

How the results depend on the processing

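The median difference of the members stayed between -0.10 and -0.12 under every alternative for the expressed genes, and was -0.06 (-0.0595) over all genes of chromosome 19 without the signal filter. The number called lower, 104, was 49 with ordinary variances, 165 with a mean-variance trend and 166 in a fit over expressed genes only. Among genes said to hold without any 1 array, Tm7sf2, Vldlr, Apba1, Plcb3, Csf2ra, Pank1, Kif20b and Pcgf5 lost their calls with ordinary variances. Leaving out 1 array gave 46 to 57 calls, and 91 without MPC 3. The 5 called higher were 1 with ordinary variances, 2 to 3 without 1 array and 4 without MPC 3. The class that exceeds is cut at the median of the set used, -0.10 for the members and -0.06 without the signal filter. Members that exceed the shift, 57, were 116 without that filter and at that other cut. Members that oppose it, 7, were 11 with ordinary variances, 11 in the fit over expressed genes, 15 without the filter, 11 with arrays centred on genes off chromosomes 13 and 19, and 12 after cyclic loess; these counts of classes were chosen as results after seeing the data. Same-numbered samples of the lines correlated in their deviations at 0.095 to 0.28 and share only a number; the replicate block gave 96 lower and 5 higher, and 5 of 6 arrays correlated best with their own number, a hint from the data and not the design. The causes of these moves were not tested. Over the alternatives, named genes called in the full fit were called again in 610 values and not in 144, those not called stayed so in 405 values and became called in 24, and 0 reversed.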

Other observations

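Among the genes of chromosome 19 at or below the signal limit, which are not members, 2 (0.67%) were called higher in MTT cells. The share over all genes tested was 3.93%. Hectd2, a HECT-type ubiquitin ligase that stands between Pcgf5 and Tnks2, had a mean log2 signal of 8.06 in MTT and 7.24 in MPC cells, a difference of 0.82. Prkg1, a cGMP-dependent kinase placed between Uhrf2 and Cstf2t, had 8.40, 8.50 and 8.31 in MTT and a mean of 7.06 in MPC cells. Both calls hold without any 1 array. Hectd2 lies inside the stretch densest in called decreases, and with Pdlim1 they are the 3 largest increases of the chromosome among called genes.

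Of the 7 genes below the limit that were called lower, Ifit1 (-0.31) and Ifit3 (-0.24), interferon-induced proteins, both lie between the members Ifit2 and Pank1. Ifit2 had a difference of -0.06 and was not called. The call of Ifit1 ended without MTT 2 or MPC 2, and that of Ifit3 without MTT 1, MTT 3, MPC 2 or MPC 3, with adjusted p up to 0.072 and 0.062 (limma). Plaat3, a phospholipase of lipid droplets and peroxisomes, had a difference of -0.23 that holds without any 1 array.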
